A study of Mus musculus with 3 samples.

Results

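Penk (ENSMUSG00000045573), the gene for proenkephalin, is 1 of 33696 genes in the count tables of leukocytes from KP1 tumors, and its transcripts were followed here across 30293 T cell-like cells and the other classes among 71909 kept cells. The gene was chosen by its summed level in T cells of the combination library, which stood above that of the IL-10/2-Trikine library, so that difference is given as a description and supports nothing. The level was raised against 1 of the 2 other libraries. T cell-like cells of the mono-IL-10 library carried about as much Penk as those of the combination.

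Proenkephalin is cut into Met-enkephalin and Leu-enkephalin, short peptides that act on the delta and mu opioid receptors. It is best known from neurons and the adrenal medulla, but T cells, mostly CD4 T cells, also make the transcript after activation. Neuroendocrine cells cut the precursor with the convertases encoded by Pcsk1 and Pcsk2 and the carboxypeptidase encoded by Cpe, and peptidases such as neprilysin (Mme) and aminopeptidase N (Anpep) break the peptides down.

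KP1 is an Rb/p53 mutant line of mouse small-cell lung cancer, and 500000 of its cells were placed under the skin of female B6129SF1/J (F1) mice labelled wild-type and bought at 5 to 6 weeks of age. The 3 groups, with 1 library each, were mono-IL-10 (labelled Supermono-10), the IL-10/2-Trikine, which joins IL-10 and IL-2 receptor signals in 1 molecule (labelled 10/2-Trikine), and the combination of this Trikine with an antibody against PD-1. Cytokine was given at 3 µg per dose every other day between days 7 and 19, and live CD45+ cells were sorted from day 19 tumors for droplet-based single-cell RNA sequencing. The treatment label of the combination alone names PD-1, for an antibody given at 200 µg on days 7, 11, 15 and 19, but the protocol text is the same for all 3 samples and can be read as antibody with either cytokine. The groups here follow the treatment labels, as does the study, which describes the antibody as an addition to the Trikine. No untreated library was analysed here, and the number of mice behind a library is not given in the sources used here. The cell type label reads mouse T cells, but the libraries also held macrophages, NK cells, B cells, dendritic cells, neutrophils and tumor cells, the last of which a CD45 gate should remove. With 1 library per group no test between treatments was possible. The 95% intervals below come from exact Poisson or binomial counting and cover counting error only.

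Total unique molecular identifiers (UMIs) were 158570946 in the mono-IL-10, 197176873 in the IL-10/2-Trikine and 175794959 in the combination library, and the kept cells had median depths of 4774, 5562 and 4273 UMIs. Between 137 and 180 kept barcodes were shared by any pair of libraries, under 0.793% of either. Levels are in CPM, which scales the summed UMIs of a class to 1e+06 over all genes. Fewer cells of a state and less RNA per cell cannot be told apart in such sums, which is why cells are also counted below.

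In T cell-like cells Penk stood at 199.6 CPM (196 to 204) with mono-IL-10, from 9219 UMIs in 8228 cells. It stood at 87.4 CPM (85.4 to 89.5) with the IL-10/2-Trikine, from 7200 UMIs in 9874 cells. It stood at 210.5 CPM (207 to 214) with the combination, from 16274 UMIs in 12191 cells. The Trikine library was thus the low one, and the others lay close together. The log2 ratio was 1.27 (1.23 to 1.31) for the combination over the Trikine, -1.19 (-1.24 to -1.15) for the Trikine over mono-IL-10 and 0.08 (0.04 to 0.11) for the combination over mono-IL-10. Of 3590 genes compared between T cell-like cells of the combination and the Trikine, 7 (0.195%) were at least 2-fold higher and 1 (0.0279%) was lower, and Penk ranked 3rd from the top. The 6 others were the chemokines Ccl3 and Ccl4, the interferon-induced Iigp1 and Isg15, the inhibitory ligand Cd200 and the growth factor Csf1. Between the Trikine and mono-IL-10, 56 of 3797 genes (1.47%) were at least 2-fold higher and 64 (1.69%) lower, Penk among the latter. Between the combination and mono-IL-10, 18 of 3733 (0.482%) were higher and 22 (0.589%) lower, and Penk was in neither group. Scaling by the median of ratios in place of summed UMIs moved the median log2 ratio of all genes by -0.07, 0.20 and 0.13 in these 3 comparisons. It gave 6 higher and 1 lower, 140 higher and 22 lower, and 30 higher and 14 lower genes, and the Penk ratios on that scale were 1.20, -0.99 and 0.21.

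The Penk UMIs sat in few cells. A Penk UMI was seen in 642, 798 and 1280 T cell-like cells (mono-IL-10, IL-10/2-Trikine and combination, the order used throughout), or 7.80%, 8.08% and 10.5%. With every cell thinned to 1000 UMIs, and the 879, 670 and 1661 shallower cells left out, the shares were 4.30% (3.85 to 4.79), 3.35% (2.99 to 3.73) and 5.90% (5.45 to 6.36). The combination was the highest of the 3 by this count. In neutrophil-like cells the thinned shares were 1.11%, 0.455% and 1.45%, and in macrophage-like cells with no UMI of Cd3d, Cd3e or Cd3g they were 0.266%, 0.102% and 0.322%. Unthinned median depths were 3943, 4834 and 3803 UMIs in T cell-like cells against 2031, 1317 and 1406 in neutrophil-like cells.

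Cells with at least 10 Penk UMIs numbered 203, 202 and 403, which was 2.47% (2.14 to 2.83), 2.05% (1.78 to 2.34) and 3.31% of T cell-like cells. They held 85.4%, 75.1% and 84.8% of the Penk UMIs of those cells. The richest single cells had 261, 125 and 207 Penk UMIs. Cells with 50 or more numbered 48, 25 and 77 and held 48.1%, 25.7% and 40.0% of the UMIs. The Trikine library thus had about as many cells with 10 or more Penk UMIs as mono-IL-10 but fewer with 50 or more. These cuts are on unthinned counts, which a deeper cell passes at a lower share of Penk. Among CD4 cells without a Foxp3 UMI, those with a Penk UMI had median depths of 6659, 12790.5 and 8806 UMIs. Similar counts therefore need not mean similar numbers of cells rich in Penk. The counting intervals treat UMIs as independent, which such a distribution does not satisfy, so they are too narrow for a difference between libraries.

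**Figure D1:**
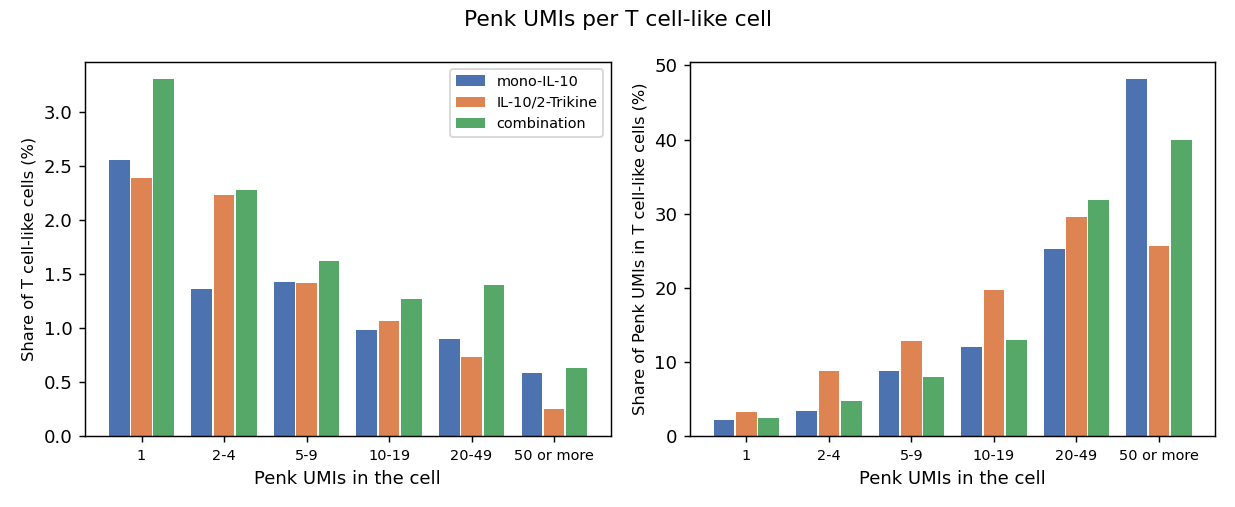
Share of T cell-like cells (left, percent) and share of their Penk UMIs (right, percent) by the number of Penk UMIs in the cell, with 1 bar per library. The 48, 25 and 77 cells with 50 or more Penk UMIs are under 1% of cells and hold 48.1%, 25.7% and 40.0% of the UMIs.

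Within the T cells, Penk was mainly a CD4 transcript. Gates were set on UMIs: CD8 (Cd8a or Cd8b1, no Cd4 or Foxp3), Foxp3-negative CD4 (Cd4, no Cd8 or Foxp3) and Foxp3-positive (Foxp3, the regulatory T cell factor, no Cd8). A missing UMI does not mean that a cell lacks the transcript, so the Foxp3-negative CD4 gate can hold regulatory T cells. The Foxp3-positive gate held 1563 cells, while a sub-cluster led by Foxp3, described below, held 2945. In Foxp3-negative CD4 cells Penk stood at 608 (592 to 624), 159 (154 to 165) and 306 (300 to 313) CPM over 1635, 2171 and 3510 cells. The mono-IL-10 library was the highest here, with the combination between it and the Trikine. In Foxp3-positive cells it stood at 236 (214 to 260), 228 (216 to 240) and 282 (270 to 295) CPM over 214, 670 and 679 cells, a narrow span in which the first 2 overlapped. In CD8 cells it stood at 35.2 (32.9 to 37.6), 11.0 (9.89 to 12.3) and 34.3 (31.9 to 36.9) CPM over 4377, 4429 and 4459 cells, with mono-IL-10 and the combination level and the Trikine low.

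The Foxp3-negative CD4 level was 17.3-fold (16.1 to 18.6), 14.4-fold (12.9 to 16.2) and 8.92-fold (8.28 to 9.62) the CD8 level. Subtracting free RNA at 10% of each cell's UMIs raised the mono-IL-10 and Trikine values from 4.11 and 3.85 to 4.99 and 5.09 on the log2 scale, and equal weight per cell raised the Trikine value to 4.72. Foxp3-positive cells stood at 0.389 (0.350 to 0.430), 1.43 (1.34 to 1.52) and 0.922 (0.877 to 0.968) of the Foxp3-negative CD4 level, so the order of these gates turned between mono-IL-10 and the Trikine. The combination over the Trikine was 3.11-fold (2.73 to 3.55) in CD8, 1.92-fold (1.84 to 2.00) in Foxp3-negative CD4 and 1.24-fold (1.16 to 1.33) in Foxp3-positive cells. With free RNA subtracted, the CD8 ratio moved from 1.64 to 2.32 on the log2 scale. The 10% was a set share and not an estimate. NK cell-like cells with no Cd3 UMI held Penk at 1.55%, 1.78% and 4.0% of its level in near-empty droplets, described below. The subtraction was thus larger than their whole Penk level, and the subtracted values are not better estimates. The Trikine over mono-IL-10 was 0.314 (0.276 to 0.356), 0.262 (0.251 to 0.274) and 0.964 (0.862 to 1.08) in the same gates. Of these gates, the Foxp3-positive one alone did not differ beyond counting error when taken as a whole. Its cells with a UMI of the proliferation gene Mki67 stood at 1.24 (1.03 to 1.51) and the others at 1.08 (0.939 to 1.25). In sub-cluster 5 of the T cell-like cells, led by Foxp3 and described below, the ratio was 0.579 (0.537 to 0.624).

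The level of CD8 cells did not stand clear of every non-T class. Neutrophil-like cells gave 39.1 (27.2 to 54.4), 10.8 (6.28 to 17.3) and 13.9 (2.87 to 40.6) CPM, and these intervals overlapped those of CD8 cells in all 3 libraries. In the thinned counts 1.17%, 0.367% and 1.24% of CD8 cells had a Penk UMI, close to the neutrophil-like shares above. Of the neutrophil-like UMIs, 32 of 35 with mono-IL-10 and 12 of 17 with the Trikine came from 1 cell in each library, and both of these cells had a Cd3 UMI. Neutrophil-like cells without a Cd3 UMI stood at 1.65 (0.0417 to 9.18), 3.31 (0.682 to 9.66) and 12.2 (1.47 to 44.0) CPM, from 1, 3 and 2 Penk UMIs, below CD8 cells in the first 2 libraries and overlapping them in the combination. The CD8 gate held 25, 10 and 16 cells with at least 10 Penk UMIs, and these gave 65.5%, 62.1% and 60.6% of its Penk UMIs. Against NK cell-like cells with no Cd3 UMI, the CD8 level was 13.6-fold (6.58 to 34.0), 9.47-fold (4.31 to 26.0) and 7.28-fold (5.00 to 11.0) higher.

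Which T cells were present also differed between libraries. Foxp3-negative CD4 cells gave 18.8%, 24.5% and 35.3% of the UMIs of T cell-like cells and 57.1%, 44.6% and 51.3% of their Penk UMIs. Foxp3-positive cells gave 3.68%, 7.35% and 9.0% of all UMIs and 4.35%, 19.1% and 12.1% of the Penk UMIs. CD8 cells gave 55.1%, 37.2% and 28.4% of all UMIs and 9.72%, 4.69% and 4.63% of the Penk UMIs. The combination would have stood at 186 CPM with its own level per gate and the gate makeup of the Trikine library, and the Trikine library at 104 CPM with the makeup of the combination, beside the measured 210.5 and 87.4. The mono-IL-10 levels with the makeup of the combination would have given 320.0 CPM, so the near equality of these 2 libraries did not extend to the Foxp3-negative CD4 gate. Cells with UMIs of both Cd4 (or Foxp3) and Cd8, 6.81%, 11.4% and 10.9% of T cell-like cells, carried 301, 97.7 and 278 CPM. They gave 16.7%, 26.1% and 22.7% of all UMIs of T cell-like cells and 25.2%, 29.2% and 29.9% of the Penk UMIs. Leaving them out gave a log2 ratio of 1.19 for the combination over the Trikine.

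**Figure D2:**
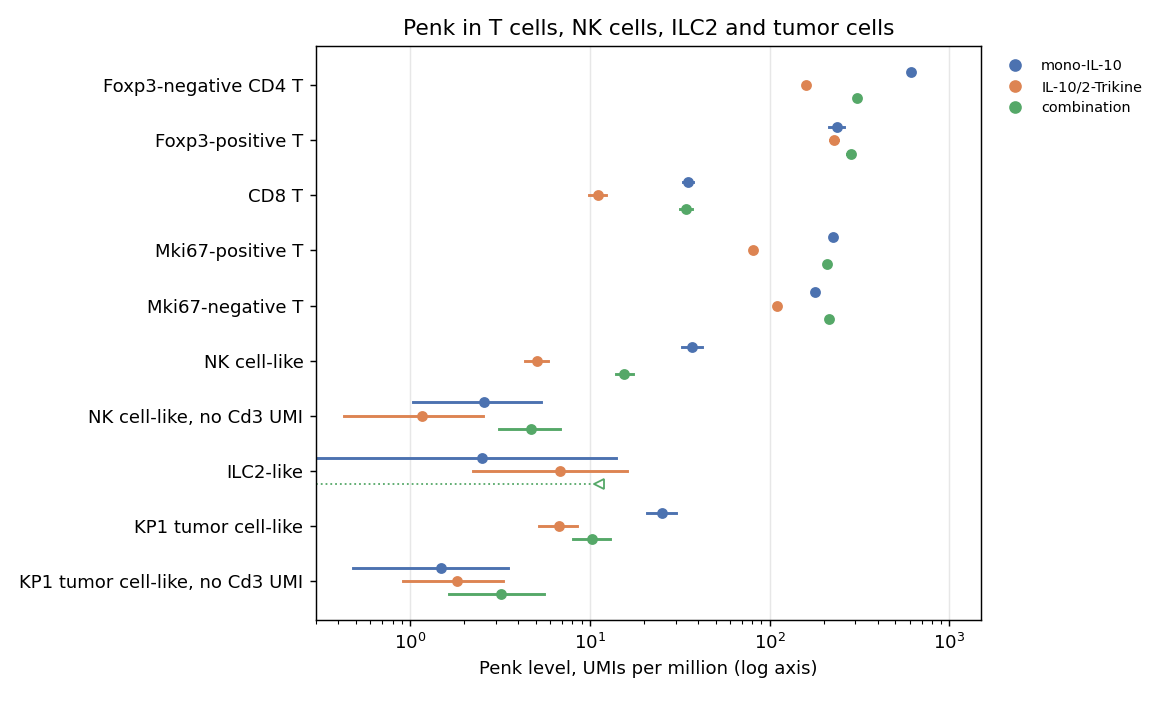
Penk level in CPM (log axis) by class, with 1 point per library and lines for 95% counting intervals; the open triangle marks the level that 3 UMIs would give in the ILC2-like cells of the combination, which had 0. Foxp3-negative CD4 and Foxp3-positive T cells lie between 159 and 608, CD8 T cells between 11.0 and 35.2, and NK cell-like and tumor cell-like cells without a Cd3 UMI under 5.

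Cycling cells, taken as those with a UMI of the proliferation gene Mki67, did not share 1 direction. Over all T cell-like cells Penk stood at 224, 80.7 and 209 CPM in 1931, 4420 and 3708 Mki67-positive cells and at 178, 110 and 213 CPM in the others, so the Trikine library was lower with Mki67 and mono-IL-10 higher. Median depths were 8574, 11505 and 10974 UMIs with Mki67 against 3560, 2936 and 3025 without. In Foxp3-positive cells the cycling level was lower in every library, 128, 159 and 224 against 390, 423 and 425 CPM, or 0.328 (0.264 to 0.407), 0.376 (0.338 to 0.419) and 0.527 (0.481 to 0.577) of it. Foxp3-positive cells without an Mki67 UMI thus carried nearly the same Penk level in all 3 libraries. In CD8 cells of the Trikine library Penk stood at 14.9 CPM in cycling cells and 1.68 CPM (0.941 to 2.77), from 15 UMIs in 2525 cells, in the others. In the non-cycling CD8 cells of mono-IL-10 and the combination it stood at 32.8 and 32.2 CPM.

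CD4 cells with UMIs of both Pdcd1, which encodes PD-1, and the costimulatory receptor gene Icos carried more Penk than the other Foxp3-negative CD4 cells. The levels were 847 (819 to 876), 188 (180 to 195) and 324 (317 to 332) CPM in 544, 1187 and 2204 such cells against 398, 94.96 and 251 CPM in the rest. The ratios were 2.13 (2.01 to 2.25), 1.98 (1.80 to 2.16) and 1.29 (1.23 to 1.37), smallest in the combination. The cells with both UMIs were deeper, with medians of 5587, 9083 and 7053 against 3464, 3741 and 3565 UMIs.

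NK cells and tumor cells carried little Penk once barcodes with T cell transcripts were set apart, and ILC2 had too few UMIs for that split. NK cell-like cells stood at 37.2, 5.07 and 15.6 CPM over 1336, 4921 and 4200 cells, and the 697, 1349 and 1894 of them with no Cd3 UMI at 2.59 (1.04 to 5.33), 1.17 (0.428 to 2.54) and 4.72 (3.13 to 6.81). No NK cell-like cell without a Cd3 UMI held 10 Penk UMIs. Of 10457 NK cell-like cells, 7012 lay in a cluster rich in Cd3e UMIs. Its leading genes include the T cell receptor genes Trdc, Trgv1 and Trgc4 beside NK receptor genes. This cluster stood at 45.0, 5.56 and 20.4 CPM. In the NK cluster with few Cd3e UMIs, 76 of 87 Penk UMIs of the mono-IL-10 library came from 1 cell. The log2 ratio of the combination over the Trikine was 1.62 in all NK cell-like cells. In those with no Cd3 UMI it was 2.02 (0.717 to 3.58). By Mki67 UMI it was 2.82 (2.48 to 3.18) in cells with one and -0.194 (-0.633 to 0.243) in the others. With cells that met the T cell marker gate taken out of the class it was 3.89. That gate asked for a Cd3 UMI and no UMI of C1qa, Lyz2, S100a8, Chga or Cd79a. Cd3-positive cells with a UMI of those genes thus stayed in the class. Free RNA subtraction at 10% gave a negative Trikine level in the whole class and so no ratio.

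ILC2-like cells, a set of 306 led by Il5 and Il13, had 1, 5 and 0 Penk UMIs in 88, 162 and 56 cells, or 2.51, 6.86 and 0 CPM, where 0 allows a level of up to 11.3 CPM at 3 counts. In the combination, 0 of 56 cells had a Penk UMI, which by the same 3 counts allows a share of up to 5.36% of cells with a UMI, and is no limit on cells that express the gene. The 27, 71 and 8 of them with no Cd3 UMI had 1, 0 and 0 Penk UMIs, and the 1 UMI gave 10.6 CPM (0.268 to 58.99) with mono-IL-10. KP1 tumor cell-like cells, marked by genes that include the neuroendocrine Chga, stood at 25.1 (20.9 to 29.96), 6.71 (5.2 to 8.52) and 10.3 (8.10 to 13.0) CPM over 800, 998 and 966 cells. With no Cd3 UMI they stood at 1.49 (0.485 to 3.48), 1.83 (0.913 to 3.27) and 3.19 (1.65 to 5.57) CPM, and the 3 intervals overlapped. With a Cd3 UMI they stood at 75.1, 14.1 and 18.5 CPM, of which 3, 2 and 2 cells with at least 10 Penk UMIs held 116 of 119, 38 of 56 and 28 of 61 UMIs.

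The same split was wide in macrophage-like and cDC2-like cells of every library. Macrophage-like cells with a Cd3 UMI stood at 94.1, 83.7 and 90.1 CPM and those without at 2.40 (1.91 to 2.96), 1.46 (0.937 to 2.18) and 2.59 (2.03 to 3.26). The cDC2-like cells, type 2 conventional dendritic cells, stood at 167, 99.9 and 209 CPM with a Cd3 UMI and at 2.75, 0.327 and 3.13 CPM without. B cell-like cells stood at 173, 1.98 and 105 CPM with and at 3.39, 1.81 and 1.58 CPM without, where the Trikine values rest on 2 and 1 UMIs and did not differ beyond counting error. Plasmacytoid dendritic cell-like cells stood at 24.2, 183 and 380 CPM with a Cd3 UMI and at 11.7 (2.41 to 34.1), 0 and 0 CPM without, from 3, 0 and 0 UMIs, and the mono-IL-10 intervals overlapped. All 80, 42 and 46 macrophage-like cells with at least 10 Penk UMIs had a Cd3 UMI, as had all 36, 65 and 30 such cDC2-like cells. Cells with a Cd3 UMI were also deeper, for macrophage-like cells with medians of 10709, 9172 and 7627 against 6798, 5259 and 5495 UMIs, and the part of joint capture with T cells in these values was not tested.

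Droplets with 10 to 100 UMIs, which mostly hold free RNA, carried Penk at 166 (157 to 176), 65.4 (56.7 to 75.0) and 118 (111 to 125) CPM. NK cell-like cells with no Cd3 UMI stood at 1.55%, 1.78% and 4.0% of these levels, CD8 cells at 21.2%, 16.9% and 29.1%, and neutrophil-like cells at 23.5%, 16.5% and 11.8%. Both droplets and CD8 cells were lowest in the Trikine library, while CD8 cells were level between mono-IL-10 and the combination and droplets were not. T cell-like cells held 60.6%, 64.7% and 81.4% of all Penk UMIs of kept cells. In order of level, Foxp3-negative CD4 cells came before Foxp3-positive cells with mono-IL-10 and the combination and after them with the Trikine, and cDC2-like cells came next among the classes ranked. Plasmacytoid dendritic cell-like cells, 143, 93 and 88 in number and not ranked, stood at 18.7, 115 and 229 CPM, above cDC2-like cells in the last 2 libraries. Neighbours overlapped among macrophage-like, neutrophil-like, NK cell-like and CD8 cells with mono-IL-10, where tumor cell-like and then ILC2-like cells stood lower. They overlapped from CD8 cells down to B cell-like cells with the Trikine. With the combination, macrophage-like and CD8 cells overlapped, and so did NK cell-like, neutrophil-like, tumor cell-like and ILC2-like cells below them.

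**Figure D3:**
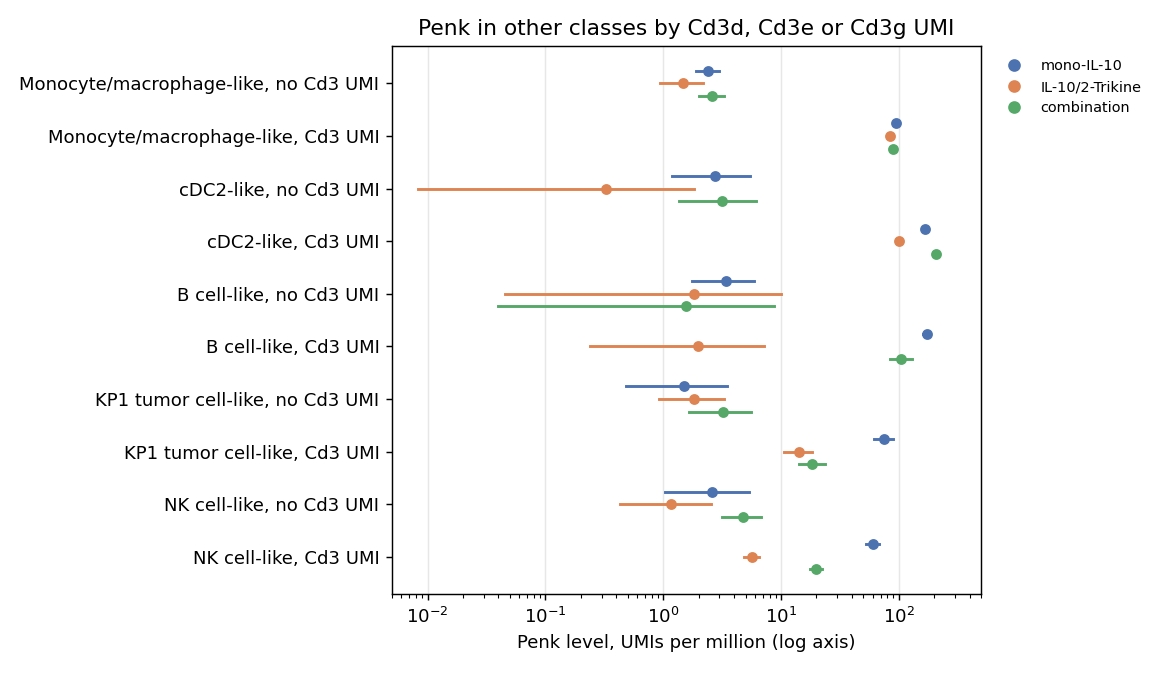
Penk level in CPM (log axis) in 5 non-T classes, split by whether a cell held a UMI of Cd3d, Cd3e or Cd3g, with 1 point per library and lines for 95% counting intervals. Cells without a Cd3 UMI lie under 5 in these 5 classes (not drawn are neutrophil-like, plasmacytoid dendritic cell-like and ILC2-like cells, which reached 12.2, 11.7 and 10.6 on 3 or fewer UMIs), and macrophage-like cells with one lie between 83.7 and 94.1.

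Among 11 sub-clusters of the T cell-like cells, which were made without Penk as an input, 2 held most of the Penk. Sub-cluster 4, led by Ccl1, Ermn, Csf1, Il21, Ifng and Cd4, stood at 797 (767 to 829), 296 (283 to 309) and 441 (431 to 451) CPM in 431, 643 and 1944 cells. Sub-cluster 7, led by genes that include Tnfsf11, which encodes RANKL, and Cd70, stood at 954 (924 to 986), 103 (99.2 to 107) and 267 (259 to 275) CPM in 421, 1315 and 1200 cells, and with a median of 12961 UMIs its cells were the deepest of the 11. The Trikine library was the low one in both. Penk was itself among the 10 leading genes of each, so its height there is part of how they are described. Sub-cluster 5, led by Foxp3, stood at 294, 170 and 252 CPM.

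Sub-cluster 10, unnamed and shallow with a median of 389.5 UMIs, stood at 312 (262 to 369), 183 (163 to 204) and 82.9 (65.1 to 104) CPM, with the combination at 0.454 (0.347 to 0.587) of the Trikine, the opposite direction to all T cell-like cells. The remaining sub-clusters lay below sub-cluster 5 in every library. Sub-cluster 6, led by Calcb, Cd8a and the checkpoint gene Lag3, stood at 85.9, 9.41 and 34.9 CPM. Sub-cluster 1, led by Ly6c2, Cd8b1 and Ccl5, stood at 4.95, 1.31 and 4.03 CPM, within the range of cells without Cd3. Sub-cluster 9, which holds the naive T cell gene Ccr7 among its leading genes, stood at 16.1, 23.1 and 13.3 CPM with overlapping intervals. Sub-cluster 11, led by heat shock genes, stood at 3.54, 33.5 and 216 CPM, but 6 of its 191 cells gave 90.1% of the Penk UMIs in the combination.

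**Figure D4:**
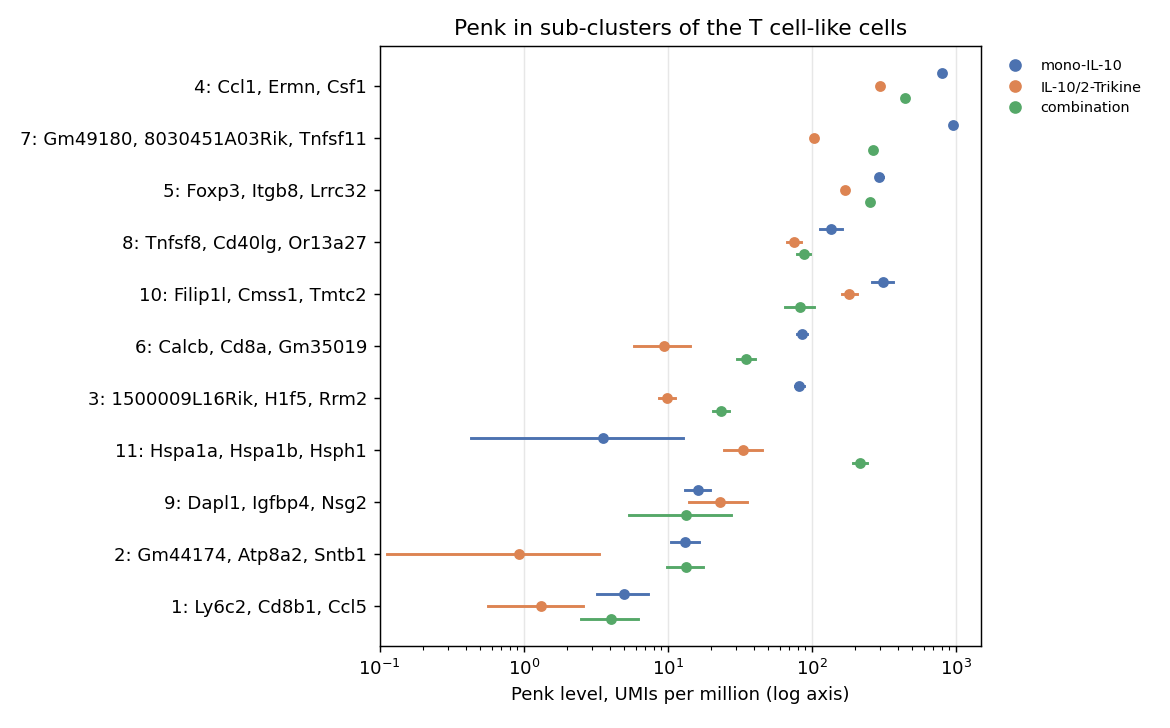
Penk level in CPM (log axis) in 11 sub-clusters of the T cell-like cells, each named by its first 3 leading genes, with 1 point per library and lines for 95% counting intervals. Sub-clusters 4 and 7 reach 797 and 954 with mono-IL-10, while sub-clusters 1, 2 and 9 stay under 25 in every library.

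The genes whose levels over these sub-clusters were most like that of Penk, as a description over 33 points (11 sub-clusters in 3 libraries, which share cells of 1 library and its depth), were Dusp14 (r = 0.90), Cd200 (0.87), the receptor kinase gene Kit (0.87), Ece1 (0.87), Sec14l1 (0.85), Hacd3 (0.85), Il1r2 (0.85) and Eea1 (0.85). The median r of the 5110 genes ranked was 0.10. Within the libraries r for Dusp14 was 0.96, 0.88 and 0.89 over 11 sub-clusters each. For Cd200 it was 0.77, 0.92 and 0.96.

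Inside the gates, cells with a Penk UMI were then compared with cells without one. The comparison took the 8 gate by library groups with at least 50 Penk-positive cells. The 30 Penk-positive Foxp3-positive cells of mono-IL-10 were too few. Of 3293 genes, 4 (0.121%) were at least 2-fold higher by the median of the 8 groups and higher in every group, and 5 (0.152%) were lower in the same way. Penk-positive cells were deeper in every group, from 7569 against 5833 UMIs in Foxp3-positive cells of the Trikine library to 14301 against 4466 in its CD8 cells. The median log2 ratios are therefore also given with the cells without Penk weighted to the depth of those with it. The CPM values and the sums of markers of other cells are not weighted. With the weighting to depth, 0 genes were both past 2-fold by the median and of 1 direction in every group. Without weighting, 14 were lower in this way with Penk-positive set at 2 UMIs. With it, 10 of the 12 genes named as high and 5 of the 6 named as low had 1 direction in all 8 groups. They were chosen for that direction on the same cells. Over all 3293 genes, 782 had 1 direction in all groups before the weighting and 338 with it.

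The highest of the genes higher in every group was Il1r2, the decoy receptor for interleukin-1. In CD8 cells it stood at 42.4, 10.4 and 27.6 CPM with Penk against 7.07, 3.46 and 2.88 CPM without. In Foxp3-negative CD4 cells it stood at 209, 99.3 and 85.4 against 82.0, 44.5 and 51.0 CPM, and in Foxp3-positive cells of the Trikine and the combination at 50.1 and 62.3 against 31.1 and 48.1 CPM. It was higher with Penk in 8 of 8 groups, with a median log2 ratio of 1.24, or 0.84 weighted to depth. It was also the marker that carried the neutrophil list (91.99% of its summed level in Penk-positive cells), where Retnlg was at 0 in every group.

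Tnfsf11 stood at 8.26, 22.6 and 28.3 CPM with Penk against 2.28, 4.92 and 4.63 CPM without in CD8 cells, and at 177, 211 and 179 against 129, 165 and 125 CPM in Foxp3-negative CD4 cells. By sub-cluster it stood at 137, 127 and 122 CPM in sub-cluster 4, with Cd4 among its leading genes. In sub-cluster 6, with Cd8a among them, it stood at 2.02, 0.448 and 2.60 CPM. The part of CD4 T cells captured with CD8 cells in the CD8 values was not tested. The median log2 ratio of Tnfsf11 was 1.19, or 0.93 weighted to depth. Ccl1, a chemokine for the receptor CCR8, had 1.04, or 0.63 weighted, and Nrgn, the calmodulin-binding neurogranin, 1.18 or 0.85. Below 2-fold came Tbc1d4 (0.99, 0.96 weighted), Pkp4 (0.91, 0.63), Gm48236 (0.85, 0.61), Ece1 (0.78, 0.62), Cd200 (0.73, 0.63) and Smim3 (0.71, 0.40). The ribosome assembly genes Mybbp1a (0.82) and Mrto4 (0.76) lost their common direction with weighting, at 0.18 and 0.23 and higher in 5 and 7 of the 8 groups. Il1r2, Cd200 and Ece1 were on both this list and that of the sub-clusters.

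The lowest were Klf3 and S1pr1, a transcription factor gene of resting lymphocytes and the receptor gene for exit from tissue. Klf3 stood at 47.4, 31.2 and 60.7 CPM with Penk against 173, 144 and 197 CPM without in CD8 cells, and at 21.1, 18.2 and 12.1 against 116, 40.0 and 31.6 CPM in Foxp3-negative CD4 cells. Its median log2 ratio was -1.50, or -0.89 weighted to depth, and that of S1pr1 was -1.47, or -0.85. Gm2682 (-1.23, -0.65 weighted), the chemokine receptor gene Ccr2 (-1.06, -0.45), Ifi209 (-1.01, -0.39) and Rasa3 (-0.98, -0.56) followed. With weighting, Ccr2 was higher in 1 of the 8 groups.

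**Figure D5:**
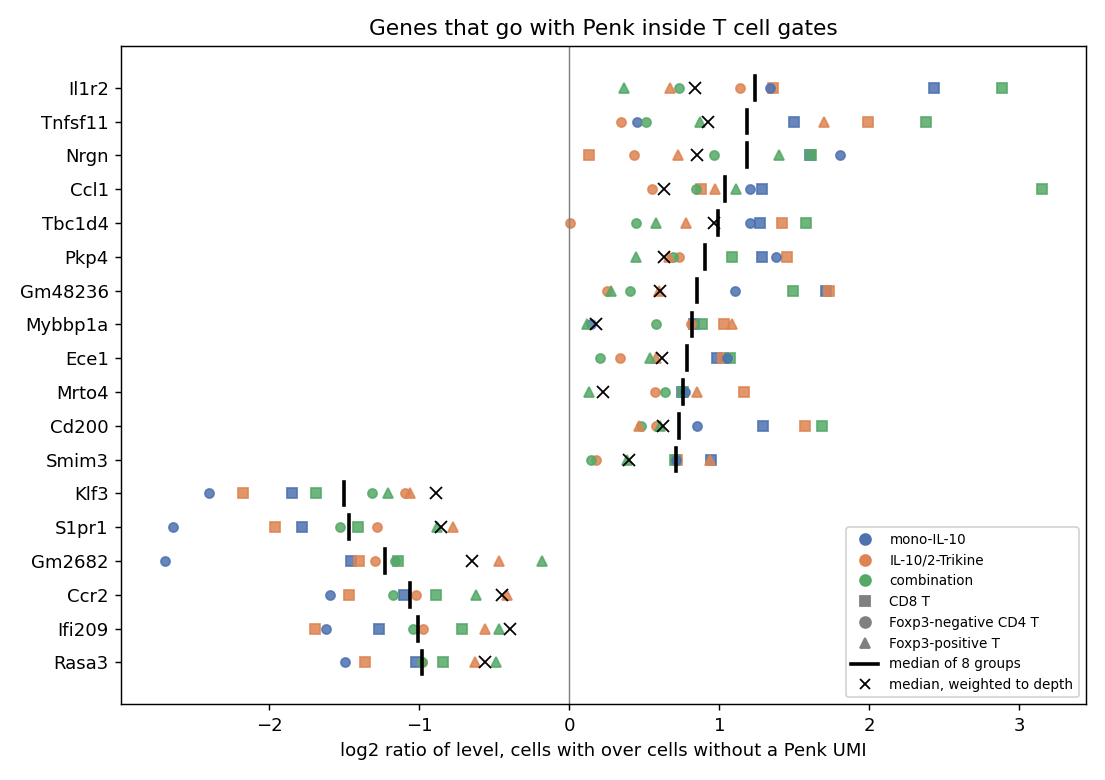
Log2 ratio of the level in cells with a Penk UMI over cells without one, for 12 genes at the high and 6 at the low end, with 1 marker per gate and library, a bar for the median of the 8 groups and a cross for the median weighted to depth. All markers of a gene lie on 1 side of 0 by the rule that chose it, and the crosses lie nearer to 0 than the bars.

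Markers of other cells did not rise with Penk as a whole. The summed level of 14 macrophage markers was lower with Penk in 8 of 8 groups, at 94.5 to 317 CPM against 111 to 718 CPM. It was led by Ly6c2 (38.2% of its sum), which CD8 T cells also express, and between 2 and 8 of the 14 markers were higher with Penk in a group. That of 15 tumor cell markers was higher in 1 of 8 (18.2 to 73.1 against 21.8 to 69.3 CPM), with Krt8 among the markers at 0 in every group. That of 8 B cell markers was higher in 2 of 8 (1.40 to 24.8 against 3.17 to 20.6 CPM). Those of 8 cDC2 and 8 plasmacytoid dendritic cell markers were each higher in 4 of 8, at 24.3 to 45.8 against 25.9 to 41.7 and at 97.0 to 166 against 97.3 to 165 CPM, with Klk1 and Cd300c at 0. The 9 neutrophil markers (16.5 to 213 against 6.29 to 93.9 CPM) and the 7 markers of mature dendritic cells (64.4 to 134 against 31.1 to 104 CPM) were higher in 8 of 8, the latter led by Ccr7 (69.1% of its sum), which T cells also express, and between 3 and 6 of the 7 were higher with Penk in a group. The part of the latter markers in the ratios was not tested.

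Among the T cell lists, the naive list stood furthest from all genes. Its 5 measured members had a median log2 ratio of -0.73 with over without Penk, against -0.00 for all genes, and -0.42 weighted to depth, with S1pr1 and Klf2 lower in all 8 groups under the weighting. Of effector cytokines 5 were measured (median 0.34, 0.30 weighted), and the chemokine gene Xcl1 had the highest ratio among them (median log2 1.58, 1.13 weighted, higher in 6 of 8 groups). Xcl1 stood at 1142, 928 and 1043 CPM with Penk against 235, 175 and 173 CPM without in CD8 cells, and at 999, 214 and 796 against 338, 91.7 and 261 CPM in Foxp3-negative CD4 cells. In Foxp3-positive cells it was level, at 59.97 and 161 against 60.9 and 173 CPM.

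The cell cycle list (10 measured) had a median of 0.30 that turned to -0.19 with weighting to depth, where 6 of its 10 genes were lower with Penk in all 8 groups, beside 338 of all 3293 genes with 1 direction, either way, in all 8. Inhibitory receptors (5 measured) had 0.15 and 0.19 weighted, regulatory T genes (7) 0.19 and 0.14, costimulation genes (7) -0.05 and 0.15, antigen signal genes (7) 0.03 and 0.15, and the AP-1, CREB and NF-kB factors reported to act on the Penk gene (11) 0.02 and 0.14. Among these Tnfrsf9, the receptor 4-1BB of recently stimulated T cells, had 0.53 and 0.34 weighted. Cd69, another activation marker, had -0.85 and -0.17 weighted. Under the weighting, 4 of 7 costimulation genes and 4 of 11 of the factors for Penk were higher with Penk in all 8 groups. So were 2 of 7 antigen signal genes, 2 of 7 regulatory T genes and 1 of 5 inhibitory receptors. The 2 regulatory T genes, Tnfrsf4 and Tnfrsf18, are also on the costimulation list. Under the weighting, none of these lists had a member lower in all 8 groups. Without it, 2 costimulation genes, 1 factor for Penk and 1 antigen signal gene were lower in all 8 groups. Of these lists, only the inhibitory receptors then had a member higher in all 8, 1 gene. Of all 3293 genes, 332 were higher and 450 lower in all 8 groups without weighting. The 2 measured genes for enkephalin breakdown had a median of -0.14, or -0.01 weighted. None of the lists in this paragraph had a member at least 2-fold apart by the median and of 1 direction in every group.

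Between the combination and the Trikine, beside 0.195% of all genes higher and 0.0279% lower, 1 of 7 genes on the inhibitory receptor list (Cd200, which encodes a ligand, at 38.4 and 82.9 CPM) and 2 of 17 effector cytokines (Ccl3, at 197 and 590 CPM, and Ccl4, at 403 and 876 CPM) were at least 2-fold higher in T cell-like cells. The lists of costimulation, regulatory T, naive T, cell cycle and antigen signal genes and of factors for Penk had 0 members past 2-fold in either direction. Their median log2 ratios were 0.55, 0.38, -0.14, -0.50, 0.25 and 0.30, against 0.04 for all genes. List members needed 20 UMIs but not the 50 CPM asked of all genes, so these counts have no exact background. Between the Trikine and mono-IL-10, beside 1.47% of all genes higher and 1.69% lower (and 140 genes higher in place of 56 with median-of-ratios scaling), 4 of 10 cell cycle, 2 of 12 regulatory T and 5 of 17 effector cytokine genes were at least 2-fold higher, and 2 of 7 naive T, 2 of 17 effector cytokine, 2 of 14 Penk factor and 1 of 12 antigen signal genes were lower. Between the combination and mono-IL-10, beside 0.482% of all genes higher and 0.589% lower, 4 of 12 regulatory T and 5 of 16 measured effector cytokine genes, and 1 gene each of the inhibitory receptor, costimulation and Penk factor lists, were higher. In that comparison 3 of 7 naive T, 2 of 14 Penk factor, 1 of 12 regulatory T and 1 of 12 antigen signal genes were lower.

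The rest of the opioid system was sparse in T cell-like cells. Of the other precursors, Pdyn had 0 UMIs, Pnoc 1, 2 and 2 UMIs and Pomc 64, 82 and 48 UMIs, or 1.39, 0.996 and 0.621 CPM. Of the genes on the opioid receptor list, Oprk1 and Oprl1 had 0 UMIs in every library, where 0 allows up to 0.0650, 0.0364 and 0.0388 CPM. The delta receptor gene Oprd1 had 0, 3 and 1 UMIs. The mu receptor gene Oprm1 stood at 15.3, 7.23 and 8.47 CPM, and Ogfr, the opioid growth factor receptor, at 61.7, 45.1 and 60.6 CPM. Penk was therefore the only one of the 4 precursors with more than 2 CPM in these cells.

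The processing genes differed between T cells and tumor cells. In T cell-like cells Pcsk1, Pcsk2 and Cpe each stood under 0.54 CPM, with 7 to 16, 6 to 10 and 11 to 41 UMIs, and Pcsk5 and Pcsk1n had 0 to 4. Pcsk6 had 28, 25 and 77 UMIs and stood under 1 CPM, and Scg5 stood at 1.34, 0.692 and 0.75 CPM. The widely expressed convertase genes Furin (33.2, 32.4 and 37.9 CPM) and Pcsk7 (41.2, 34.0 and 39.1 CPM), carboxypeptidase D (Cpd, 15.3, 19.3 and 21.5 CPM) and aminopeptidase B (Rnpep, 32.5, 46.2 and 40.3 CPM) were present, as was cathepsin L (Ctsl) at 6.52, 4.91 and 7.48 CPM. In tumor cell-like cells Pcsk2 stood at 87.7, 93.5 and 121 CPM, Cpe at 108, 94.1 and 105 CPM and the Pcsk2 chaperone Scg5 at 112, 109.6 and 108 CPM, with Pcsk1 at 24.5, 25.9 and 31.6 CPM, beside the low Penk levels given above. The granule genes Chga, Chgb, Scg2, Scg3 and Vgf stood under 0.59 CPM in T cell-like cells, and Chga at 263, 277 and 286 CPM in tumor cell-like cells. Of the genes for enkephalin breakdown, Mme had 1 or 2 UMIs per library in T cell-like cells, Ace 4 to 9 and Anpep 15 to 38. Lnpep (267, 189 and 223 CPM), Npepps (71.3, 60.4 and 66.2 CPM) and Dpp3 (37.1, 33.9 and 37.0 CPM) were the ones present. With 1 CPM added to each level, no measured member of these 5 lists was 2-fold apart between any pair of libraries in T cell-like cells.

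Penk-rich CD4 cells did not share 1 receptor. Among Foxp3-negative CD4 cells with at least 10 Penk UMIs and exactly 1 Trbv segment, the variable part of the receptor beta chain, detected (52, 33 and 84 cells), 11, 7 and 9 segments were seen. The most frequent was Trbv2 at 42.3%, Trbv15 at 33.3% and Trbv3 at 35.7%. In the 374, 575 and 873 such cells with no Penk UMI the most frequent segments were Trbv2 at 40.1%, Trbv3 at 30.1% and Trbv3 at 30.5%. The leading segment was thus the same as in cells without Penk in mono-IL-10 and the combination, and another one in the Trikine library. Segments were taken from transcript counts without receptor sequences, so clones cannot be told apart.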

How the data were processed

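The deposited matrices hold raw UMI counts per gene and barcode, empty droplets included, made by the authors in Cell Ranger. Version 8.0.0 stands in the headers and mm10 in the labels, the methods name another version and build, and no coordinates are given. Samples were grouped by their treatment labels.

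Barcodes with at least 200 genes and at most 20% mitochondrial UMIs, the limits in the methods, were kept. These left 71909 barcodes, more than the study states. The 3 libraries were clustered together (scanpy 1.11.5, leidenalg 0.10.2, igraph 0.11.9, 2000 variable genes without Penk and cell cycle genes, 30 components, 20 neighbors, resolution 1, seed 1) and T cells again at 0.8. Clusters were named "-like" from marker lists (at least 3 markers, each 1.5-fold and in 10% of cells), and names may differ from the study's. Scrublet, at automatic thresholds of 0.187, 0.180 and 0.304, marked 14.5%, 16.6% and 5.64% of cells as doublets, so removal was unequal between libraries, and these were kept except in an alternative. No test between libraries was run. Ratios across genes took those reaching 50 CPM on the higher side and 20 UMIs over both, with a pseudocount of 1 CPM. Depth weighting used 5 bins. Pearson r used log2(CPM + 10).

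Named were Penk, the opioid genes, list members at least 2-fold apart or shown for a list, the 12 highest and 6 lowest genes with Penk and the 8 most like it. The members and lists were chosen with earlier results of these data known. Only the comparison of cells with and without Penk and the counting intervals were tested on simulated data, which had independent counts. Computation ran in Python 3.11.15 with scipy 1.17.1, numpy 2.4.6, anndata 0.12.19, pandas 2.3.3, scikit-learn 1.9.0 and matplotlib 3.10.9. The alternatives tried were cell filters, doublet removal, T cells by marker gate, scaling, weighting per cell, free RNA subtraction, cluster resolution, thinning depth and the Penk cut-off.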

Additional observations from a re-analysis of the deposited data

Results flagged for a closer look

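For the combination over mono-IL-10 the Penk ratio lay below 1 in 1 T cell gate and slightly above 1 in another. It was 0.504 (0.486 to 0.521) in Foxp3-negative CD4 cells and 1.19 (1.07 to 1.33) in Foxp3-positive cells. In the latter it was 1.75 (1.45 to 2.11) in cycling cells and 1.09 (0.949 to 1.25) in the others. The Foxp3-positive value rests on 214 mono-IL-10 cells, 12 of them with at least 10 Penk UMIs. Its interval covers counting error only and is too narrow for a difference between libraries. In sub-cluster 5, led by Foxp3, the ratio was 0.858 (0.802 to 0.918). The difference between the gates was not tested, with 1 library per treatment.

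In Foxp3-negative CD4 cells the ratio of cycling over non-cycling cells was 1.21 (1.15 to 1.28) with mono-IL-10 but 0.676 (0.626 to 0.731) with the IL-10/2-Trikine and 0.818 (0.783 to 0.855) with the combination, and this difference was not tested either.

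Near-empty droplets, which lie outside the kept cells, held Penk at 166, 65.4 and 118 CPM in the mono-IL-10, IL-10/2-Trikine and combination libraries, from 1287, 205 and 1022 UMIs.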

How the results depend on the processing

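The Penk ratios given in the next paragraphs (between libraries in T cell-like cells, the combination over the Trikine by class, and Foxp3-negative CD4 over CD8 cells) kept their direction under the alternatives run, and other ratios had no alternatives. Still, the order of the mono-IL-10 and IL-10/2-Trikine shares of Penk-positive cells turned without thinning, and the median of the cell cycle list turned from 0.30 to -0.19 weighted to depth. No paired analysis was possible because each treatment had 1 library, so no replicate was left out either. The causes of the moves below were not tested unless the alternative itself drops cells or genes.

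The log2 ratios of Penk in T cell-like cells were 1.27, -1.19 and 0.08 (combination over IL-10/2-Trikine, IL-10/2-Trikine over mono-IL-10 and combination over mono-IL-10). They became 1.49, -1.48 and 0.017 with T cells by marker gate, 1.15, -1.11 and 0.038 without called doublets, 0.97, -0.80 and 0.17 with equal weight per cell, 1.20, -0.99 and 0.21 with median-of-ratios scaling, and 1.41, -0.94 and 0.47 without the richest 1% of cells. The last value followed free RNA subtraction to 0.12. Leaving out cells with both Cd4 and Cd8, an alternative chosen after seeing the data, gave 1.19 and -1.10 for the first 2.

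The ratio of the combination over the Trikine was 1.64 in CD8, 0.94 in Foxp3-negative CD4, 0.31 in Foxp3-positive, 1.37 in cycling T and 1.62 in NK cell-like cells. It became 1.86, 1.0, 0.50, 1.76 and 3.89 with the marker gate. Without called doublets, which were called at a higher threshold in the combination, it became 0.81 in Foxp3-negative CD4, 0.14 in Foxp3-positive, 1.25 in cycling T and 1.08 in NK cell-like cells. With equal weight per cell it became 1.97 in CD8, 0.13 in Foxp3-positive and 1.32 in cycling T cells, and free RNA subtraction gave 2.32 in CD8 cells and no value in NK cell-like cells, where the Trikine level fell below 0.

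The ratio of Foxp3-negative CD4 over CD8 cells (4.11, 3.85 and 3.16 in mono-IL-10, the Trikine and the combination) became 4.99, 5.09 and 3.71 with free RNA subtracted, 3.97, 4.72 and 3.69 with equal weight per cell, and 4.43 and 4.07 with the marker gate in the first 2.

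The share of T cell-like cells with a Penk UMI was 3.13%, 2.18% and 3.99% thinned to 500 UMIs, 5.72%, 4.72% and 7.99% thinned to 2000 UMIs and 7.80%, 8.08% and 10.5% unthinned. With at least 10 Penk UMIs, also chosen after seeing the data, it was 2.47%, 2.05% and 3.31%.

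Genes at least 2-fold apart with Penk by the median and of 1 direction in every group, 4 higher and 5 lower, numbered 0 and 0 weighted to depth. With Penk-positive set at 2 UMIs, 14 were lower. Genes at least 2-fold higher between libraries (7, 56 and 18) numbered 24, 106 and 45 at 10 CPM and 140 and 30 with median-of-ratios scaling for the last 2, which turned the share of higher among called genes from 46.7% to 86.4% and from 45.0% to 68.2%. Of the values that answer a comparison, 37 stayed within counting error or 1.5 times, while 59 moved beyond that. Of the single-gene values, 65 stayed within the standard deviation of the log2 ratios over the gate by library groups, and 7 moved. Depth limits what can be said of NK cells, ILC2, tumor cells and non-cycling CD8 cells, whose Penk rests on few UMIs.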
